A study of Homo sapiens with 12 samples.

Results

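Reporter mRNA variants in which lysine was the last amino acid before a premature stop codon were examined here, for their RNA level with and without inhibition of nonsense-mediated mRNA decay (NMD). A variant was a member when bases 7 to 9 of its 10-base window were TAA, TAG or TGA, when bases 4 to 6 were AAA or AAG, the 2 lysine codons, and when neither bases 1 to 3 nor bases 4 to 6 were a stop codon. The rule used sequence only. It found 418 of the 41955 variants listed for the EJC-independent reporter, 211 with AAA and 207 with AAG, and 593 of the 51306 listed for the EJC-enhanced reporter, 293 with AAA and 300 with AAG. This made 1011 lysine variants of 93261 in all. Variants with the tryptophan codon TGG at bases 7 to 9 and the same other bases served as controls.

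The study varied the bases next to a premature stop codon and asked what they do to NMD. Human embryonic kidney HEK293T cells, otherwise wild type per the labels, carried a reporter library at 1 place in the genome, put there by Cre-Lox recombination. The window was 6 random bases (a penultimate codon at 1 to 3 and the last codon at 4 to 6), a stop codon or TGG, and 1 random base, base 10. The groups were EJC-independent library with DMSO, EJC-independent library with the SMG1 inhibitor SMG1i, EJC-enhanced library with DMSO and EJC-enhanced library with SMG1i, each with 3 libraries of total RNA (12 in all), with agents at 24 hours before harvest and SMG1i at 0.5 µM. Whether the libraries of a group came from separate cultures is not stated. Positions are those within the window, because the sources used here give no coordinates for the site of integration.

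NMD degrades mRNAs on which translation ends too early, and the kinase SMG1 starts it by phosphorylating the helicase UPF1. The exon junction complex (EJC), left on mRNA by splicing, strengthens NMD when it lies downstream of the stop codon, and the reporters are named for whether their decay goes on without it or is enhanced by it. At termination the last amino acid sits on its tRNA in the ribosomal P site, where the release factor eRF1 triggers hydrolysis of the bond between tRNA and peptide. Lysine has a long, positively charged side chain. Its codons differ only in the last base, and runs of AAA codons are known to make ribosomes pause and slide.

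The members can be read from 1 window measured with both lysine codons and every codon at 7 to 9. It is shown because, among windows with all 8 of these variants (5 in the EJC-independent and 28 in the EJC-enhanced table), its least counted variant had the most reads in each table. Proline (ccc) is penultimate, base 10 is C, and capitals mark the stop codon or TGG.
AAA before TAA: cccaaaTAAc
AAA before TAG: cccaaaTAGc
AAA before TGA: cccaaaTGAc
AAA before TGG: cccaaaTGGc
AAG before TAA: cccaagTAAc
AAG before TAG: cccaagTAGc
AAG before TGA: cccaagTGAc
AAG before TGG: cccaagTGGc

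Values are log2 ratios per variant, called the response, taken as RNA under SMG1i over RNA under DMSO. The authors deposited no value per library, so each response is 1 number with the deposited standard error (SE). In the EJC-independent reporter the AAA window had responses of 1.15 ± 0.27 before TAA, 1.61 ± 0.42 before TAG, 1.72 ± 0.29 before TGA and 0.12 ± 0.22 before TGG. The AAG window had 1.55 ± 0.25, 1.40 ± 0.12, 2.01 ± 0.19 and 0.03 ± 0.21 in the same order. Each stop variant of this window was thus above its TGG control, and TGA gave the highest value with either codon. For the EJC-enhanced reporter the AAA window had 1.49 ± 0.43, 1.84 ± 0.40, 2.67 ± 0.36 and 0.05 ± 0.31. The AAG window had 2.05 ± 0.29, 2.42 ± 1.34, 2.97 ± 0.38 and -0.25 ± 0.28. The value of 2.42 has an SE several times that of its neighbours and did not pass the adjusted p of 0.05 in the authors' deposited table.

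Lysine was the least listed last amino acid of the 20 in both tables. Of 1464 possible lysine stop variants, 28.6% were listed for the EJC-independent reporter, against 65.1% of all stop variants, and 40.5% for the EJC-enhanced reporter, against 77.5%. AAG (28.3%) and AAA (28.8%) were the 2 least listed of 61 codons in the EJC-independent table, and AAA (40.0%) and AAG (41.0%) in the EJC-enhanced table. The glutamate codons GAG and GAA came next in both. With TGG in place of the stop codon, 154 of 488 possible lysine variants (31.6%) were listed for the EJC-independent reporter, against 69.6% of all TGG variants, and 290 (59.4%) for the EJC-enhanced reporter, against 88.2%. The low listing of lysine was therefore also present without a stop codon. Listed lysine stop variants were also less deeply counted, with a median mean normalized count (averaged by the authors over both treatments) of 93.5 against 243.2 over all stop variants in the EJC-independent table and 55.0 against 142.8 in the EJC-enhanced table. A minimum mean normalized count of 10 was applied, which left 416 (210 AAA, 206 AAG) and 588 (289 AAA, 299 AAG).

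Lysine stop variants differed from their TGG controls in both reporters. The numerator of the deposited ratio is not stated, and the sign was set so that stop variants are positive. The direction, more RNA under the inhibitor, is therefore an assumption, and the size of the difference is the result. In the EJC-independent reporter the 416 lysine stop variants ran from -2.78 to 4.26 with a median of 1.68, and their mean was 1.70 (SD 0.74 over variants), or 3.25-fold. The 152 lysine TGG variants averaged -0.07 (SD 0.71). The 588 lysine stop variants of the EJC-enhanced reporter ran from -1.21 to 5.32 with a median of 2.28, a mean of 2.25 (SD 0.95), or 4.76-fold, while 285 lysine TGG variants averaged -0.04 (SD 0.76). The ranges of stop and TGG variants overlapped, since the TGG variants reached 1.80 and 2.80. Over pairs with the same other 7 bases, stop minus TGG was 1.68 (95% interval 1.54 to 1.82, 196 pairs, 186 above 0) in the EJC-independent reporter and 2.27 (2.14 to 2.39, 434 pairs, 419 above 0) in the EJC-enhanced reporter. Both passed a Wald test with errors clustered on the 6 random bases (adjusted p 1.3e-32 and 9.2e-57 over 20 amino acids). The errors and p-values here and below describe how much sequences differ within 1 set of libraries, not how much cultures do.

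In the authors' deposited table of EJC-independent variants, 296 of 416 lysine stop variants were called higher under SMG1i (adjusted p under 0.05), which is 71.2% (Wilson 95% interval 66.6 to 75.3, counting error only), and 0 were lower. Over all stop variants 84.8% were called higher there. The authors' deposited table of EJC-enhanced variants called 418 of 588 higher, 71.1% (67.3 to 74.6), and 0 lower, beside 85.7% of all stop variants. The lysine share is below the background in each table, as a description with no test, and lysine variants were also less deeply counted. In the authors' deposited tables the shares above a minimum mean count of 100 were 96.6% for lysine against 98.1% for all stop variants in the EJC-independent reporter, and 91.0% against 95.5% in the EJC-enhanced reporter. Among the lowest counts, from 10 to 50, the authors' deposited table called 31.5% of lysine and 36.6% of other stop variants in the EJC-independent reporter, and 50.4% and 54.0% in the EJC-enhanced reporter. From 100 to 200 the shares of lysine and other stop variants were close, 92.8% and 92.6% in the EJC-independent reporter. In the EJC-enhanced reporter they were 93.4% and 93.0%. From 200 to 500 they were 98.5% and 99.1% in the EJC-independent reporter. The EJC-enhanced shares there were 83.3% (36 lysine variants) and 95.8%. The part of depth in the lower share was not tested further. Of the lysine TGG controls, the authors' deposited table had 1 higher and 3 lower of 152 in the EJC-independent reporter, where 8.12% of all TGG variants were called either way. The authors' deposited table of EJC-enhanced variants had 8 higher and 6 lower of 285, where that share was 4.13%.

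Against other last amino acids, lysine lay near the middle in the EJC-independent reporter and near the low end of a narrow range in the EJC-enhanced reporter. By mean response it was 10th of 20 in the EJC-independent reporter, between alanine (1.703) and tryptophan (1.67), and 18th of 20 in the EJC-enhanced reporter, between arginine (2.25) and tryptophan (2.23). A linear model over all stop variants of a table, with terms for last codon, penultimate codon, stop codon and base 10, gave the deviation of lysine from the mean of the other 19 amino acids. The deviation was 0.02 (95% interval -0.06 to 0.10, adjusted p 0.632) in the EJC-independent reporter, where 75% of the 20 amino acids passed. It was -0.04 (-0.13 to 0.04, adjusted p 0.657) in the EJC-enhanced reporter, where 15% passed. Lysine did not pass in either. The difference of these deviations between reporters was 0.07 (-0.05 to 0.18, adjusted p 0.296). The EJC-enhanced value depended on the depth filter: with a minimum mean count of 50 the deviation was 0.12 (adjusted p 0.0491), and with a minimum of 100 it was 0.15 (adjusted p 0.0278). The mean count includes the inhibitor libraries, so a higher minimum, here and below, selects variants partly by their response. At 100 it left 144 of 588 EJC-enhanced lysine stop variants, against 21286 of 33934 with other last amino acids. These values therefore cannot separate depth from response. On the differences from matched TGG variants the lysine deviation was 0.00 (-0.15 to 0.15) and -0.01 (-0.13 to 0.12).

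Set against single amino acids in the EJC-independent reporter, lysine was higher than 7 of the other 19 and lower than 2 at an adjusted p under 0.05. The 2 above lysine were glycine, the smallest amino acid, from which lysine differed by -0.43 (-0.52 to -0.34), and threonine, by -0.38 (-0.46 to -0.29). Cysteine, phenylalanine, histidine, methionine, asparagine, glutamine and tyrosine were below lysine, with tyrosine the farthest (lysine minus tyrosine 0.29, 0.20 to 0.38). After subtraction of the matched TGG variant, in fewer variants, lysine was higher than 0 and lower than 2 of the 19, with 4 at an unadjusted p under 0.05 in the Wald test. Lysine minus tyrosine was then 0.22 (adjusted p 0.055), while glycine (-0.40) and threonine (-0.45) stayed past the threshold. The Wald test called 0 of the 19 in the EJC-enhanced reporter, and 3 had an unadjusted p under 0.05. With minimum mean counts of 50 and 100, lysine was higher than 11 and 13 of the 19 there.

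The comparators closest to lysine in codon or charge were asparagine, whose codons share the first 2 bases with those of lysine, glutamine, an uncharged amino acid of similar size, and arginine, the other long, positively charged side chain. Lysine exceeded asparagine by 0.15 (0.06 to 0.25, adjusted p 0.0032) in the EJC-independent reporter and differed from it by -0.11 (-0.21 to -0.01, adjusted p 0.302) in the EJC-enhanced reporter. Lysine exceeded glutamine by 0.19 (0.10 to 0.28, adjusted p 0.00015) in the EJC-independent reporter, while the EJC-enhanced difference was -0.04 (-0.14 to 0.06, adjusted p 0.655). Tested directly over 16 such contrasts, the reporters differed for lysine minus asparagine by 0.26 (0.12 to 0.40, adjusted p 0.0017) and for lysine minus glutamine by 0.23 (0.10 to 0.36, adjusted p 0.0043). Neither difference passed with a minimum mean count of 50 (0.15, adjusted p 0.124, and 0.15, adjusted p 0.0895) or 100 (0.11, adjusted p 0.356, and 0.087, adjusted p 0.438), where the EJC-enhanced contrasts turned positive. Lysine and arginine were not distinguished: the difference was -0.03 (-0.12 to 0.05, adjusted p 0.581) in the EJC-independent and 0.01 (-0.08 to 0.10, adjusted p 0.864) in the EJC-enhanced reporter. After subtraction of the matched TGG variant, in fewer variants, lysine minus asparagine was 0.12 (adjusted p 0.372) and lysine minus glutamine 0.17 (adjusted p 0.206) in the EJC-independent reporter, neither past the threshold. With a minimum mean count of 50, lysine minus arginine in the EJC-enhanced reporter was 0.17 (adjusted p 0.0057).

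AAA and AAG code the same amino acid, so their contrast compares codons with the amino acid held. Mean responses were 1.68 (SD 0.70) for AAA and 1.71 (SD 0.78) for AAG in the EJC-independent reporter, 37th and 30th of 61 codons. They were 2.21 (SD 1.01) and 2.29 (SD 0.88) in the EJC-enhanced reporter, 58th and 36th. In the model AAA minus AAG was -0.04 (-0.21 to 0.12, adjusted p 0.736 over 87 synonymous pairs) and -0.07 (-0.24 to 0.09, adjusted p 0.947). Variants that differed in this 1 base alone gave -0.02 (SD 0.95, 102 pairs, 46 above 0) in the EJC-independent reporter and -0.03 (SD 1.30, 179 pairs, 86 above 0) in the EJC-enhanced reporter. By stop codon the EJC-independent pairs gave 0.22 (-0.09 to 0.53, 21 of 34 above 0) before TAA, -0.22 (-0.72 to 0.29, 11 of 32) before TAG and -0.07 (-0.26 to 0.12, 14 of 36) before TGA. The EJC-enhanced pairs gave -0.12 (-0.40 to 0.16), 0.08 (-0.21 to 0.37) and -0.03 (-0.36 to 0.29) in the same order. The TGG pairs of the EJC-independent reporter gave 0.30 (0.02 to 0.58, 24 of 37), and those of the EJC-enhanced reporter 0.03 (-0.20 to 0.26, 49 of 100). Over all EJC-independent TGG variants the means were -0.05 for AAA and -0.10 for AAG. In a model of those variants 0 of the 87 synonymous pairs passed the Wald test. Against all other codons AAA deviated by -0.04 (-0.14 to 0.05) and AAG by 0.00 (-0.13 to 0.13) in the EJC-independent reporter, where 60.7% of codons passed, and neither did. For the EJC-enhanced reporter AAA deviated by -0.08 (-0.22 to 0.05) and AAG by -0.01 (-0.10 to 0.09), where 3.28% of codons passed, again without either. With a minimum mean count of 100 the EJC-enhanced deviation of AAA was 0.22 (adjusted p 0.0365).

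By stop codon, lysine variants of the EJC-independent reporter averaged 1.80 before TGA (SD 0.59, 138 variants), 1.69 before TAA (SD 0.73, 146) and 1.60 before TAG (SD 0.87, 132). With other last amino acids the averages were 1.84, 1.69 and 1.63 in the same order. Within lysine variants TGA exceeded TAG by 0.24 (0.05 to 0.44, adjusted p 0.0277). TGA minus TAA was 0.14 (-0.01 to 0.30, adjusted p 0.0997), and TAA minus TAG was 0.10 (-0.12 to 0.32, adjusted p 0.426). Over all amino acids and stop pairs 65% of such differences passed, and the medians over the other 19 amino acids were 0.14 for TGA minus TAA, 0.21 for TGA minus TAG and 0.06 for TAA minus TAG. The call for TGA over TAG ended with a minimum mean count of 100 (0.20, adjusted p 0.134) and with plain means (0.20, adjusted p 0.0507). TGA minus TAA passed with a minimum of 50 (0.20, adjusted p 0.0338). Against matched TGG variants, lysine variants were higher by 1.88 before TGA (65 of 65 pairs above 0), by 1.76 before TAA (65 of 68) and by 1.39 before TAG (56 of 63). On these differences TAA minus TAG was 0.47 (adjusted p 0.0403), past the threshold. The TAG variants in these pairs averaged 1.42 before subtraction, below the 1.60 of all 132. Windows that held both TAA and TAG gave 0.14 for TAA minus TAG (-0.17 to 0.44, 29 of 62 pairs above 0).

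Lysine variants of the EJC-enhanced reporter averaged 2.28 before TGA (SD 0.94, 191), 2.26 before TAA (SD 0.87, 198) and 2.22 before TAG (SD 1.04, 199). TGA minus TAA was 0.00 (-0.18 to 0.19), TGA minus TAG 0.08 (-0.12 to 0.28) and TAA minus TAG 0.08 (-0.10 to 0.25). None passed the Wald test, and 0% of the 60 differences over all amino acids passed it, with 8 at an unadjusted p under 0.05.

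Base 10, the first base after the stop codon, is a known modulator of termination. In the EJC-independent reporter lysine variants averaged 1.67 with A, 1.70 with C, 1.72 with G and 1.71 with T, and no base deviated beyond its error (-0.02, 0.00, 0.05 and -0.03 in the model, lowest adjusted p 0.805). There 3.75% of the 80 tests over all last amino acids passed. The EJC-enhanced averages were 2.23 with A, 2.29 with C, 2.08 with G and 2.33 with T. The deviation with G was -0.22 (-0.43 to -0.01), with an unadjusted p of 0.0407 and an adjusted p of 0.362. The Wald test called 0% of the 80 in that reporter, with 10 at an unadjusted p under 0.05.

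Split by codon, stop codon and base 10, lysine variants fell into 24 cells of 8 to 32 variants in the EJC-independent and 12 to 38 in the EJC-enhanced reporter. The EJC-independent means ran from 1.32 ± 0.29 (SE) for AAG before TAG and A to 2.10 ± 0.17 for AAG before TAG and G. The EJC-enhanced means ran from 1.80 ± 0.20 for AAA before TAA and A to 2.62 ± 0.19 for AAA before TAA and T. The extreme cells of a reporter therefore shared their last codon and their stop codon and differed in base 10 alone. These cells are named for their rank and carry no test.

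The penultimate amino acid is the residue before lysine in the peptide. The highest EJC-independent means were with lysine (2.21 ± 0.24 SE, 5 variants), isoleucine (2.03 ± 0.30, 13) and valine (1.96 ± 0.15, 21), and the lowest with glutamate (0.31 ± 0.73, 4), glutamine (1.47 ± 0.15, 13) and tryptophan (1.49 ± 0.21, 5). The 4 TGG variants with glutamate before lysine were low too, at -1.07 ± 0.67. Glutamate is negatively charged, as is aspartate, which averaged 1.85 ± 0.26 (10 variants) in the EJC-independent reporter. With glutamate the EJC-enhanced mean was 2.33 ± 0.72 (3 variants). Highest in the EJC-enhanced reporter were glutamine (2.53 ± 0.17, 14), proline (2.49 ± 0.09, 83) and tryptophan (2.45 ± 0.40, 5), and the lowest glycine (1.72 ± 0.21, 24), methionine (1.85 ± 0.19, 2) and isoleucine (1.87 ± 0.30, 15). The SEs of these penultimate means count each variant as separate. The 83 variants with proline hold only 8 different sets of 6 random bases, and the 24 with glycine hold 7. In the EJC-enhanced reporter some TGG controls were off 0 as well, at -0.59 ± 0.24 with glycine (8 variants) and -0.56 ± 0.18 with methionine (3). Those with glutamine averaged 0.23 ± 0.40 (10), within error of 0. With tryptophan there was 1 TGG variant, at 1.81 with a deposited SE of 1.08, and it was not called. The order of the stop variants can thus differ from that of their distance from the controls.

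Within lysine, 0 of 18 penultimate amino acids with at least 3 windows passed the Wald test in the EJC-independent reporter, and 0 of 16 in the EJC-enhanced reporter. Over all last amino acids 9.22% and 3.91% of such tests passed. At an unadjusted p under 0.05 there were valine (0.45, adjusted p 0.269) and glycine (-0.35, adjusted p 0.300) in the EJC-independent reporter and proline (0.38, adjusted p 0.443) in the EJC-enhanced reporter.

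Adenines can also run into AAA from the penultimate codon. EJC-independent AAA variants with a run of 3 A ending at base 6 averaged 1.66 ± 0.05 (SE, 176 variants), those with 4 A 1.93 ± 0.11 (29), and those with 5 A 1.01 ± 0.67 (4). AAG variants with the same penultimate codons averaged 1.76 ± 0.06 (177), 1.44 ± 0.13 (19) and 1.78 ± 0.16 (4). In the EJC-enhanced reporter the AAA means were 2.18 ± 0.06 (247), 2.44 ± 0.17 (38) and 2.53 ± 0.66 (2), and the AAG means 2.26 ± 0.05 (240), 2.44 ± 0.15 (47) and 2.13 ± 0.40 (5). AAA variants with 4 A were above those with 3 A in both reporters, while the few with 5 A were the lowest of the 3 sets in the EJC-independent and the highest in the EJC-enhanced reporter. The TGG controls with 5 A averaged -0.55 in the EJC-independent reporter (3 variants) and -0.77 in the EJC-enhanced reporter (2 variants that share their 6 random bases). Their median deposited SEs were 0.48 and 0.82, and the authors' deposited tables called none of them. The EJC-enhanced TGG variant with 6 A was at 0.01. AAG TGG variants with the penultimate codons of the 5 A controls were at 0.42 (1 variant) in the EJC-independent reporter. In the EJC-enhanced reporter they averaged 1.01 ± 0.80 (2). AAA TGG variants with 4 A averaged -0.31 ± 0.47 (8) in the EJC-independent and 0.06 ± 0.17 (24) in the EJC-enhanced reporter. The AAG counterparts of these 4 A controls averaged 0.20 ± 0.15 (11) and -0.29 ± 0.21 (24). These sets carry no test. The variants with 6 A, 2 lysine codons in a row, are printed here because they hold the longest run. They were the only AAA-AAA members used.
AAA-AAA before TAA, EJC-independent: aaaaaaTAAc
AAA-AAA before TAG, EJC-enhanced: aaaaaaTAGc
AAA-AAA before TGA, EJC-enhanced: aaaaaaTGAc

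Their responses were 1.34 ± 0.63, 2.02 ± 0.81 and 0.60 ± 1.45 in that order, at mean counts of 76.7, 36.7 and 10.7. The TAG variant alone passed the adjusted p of 0.05 in the authors' deposited table (0.0203).

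AAA before TAA and A spells AATAAA at bases 5 to 10, the letters of the canonical polyadenylation signal. The 11 EJC-independent variants of this kind averaged 1.46 ± 0.26 (SE), those with AAA, TAA and another base 10 averaged 1.67 ± 0.10 (63), and those with AAG, TAA and A averaged 1.92 ± 0.23 (16). The same 3 sets of the EJC-enhanced reporter averaged 1.80 ± 0.20 (15), 2.24 ± 0.10 (79) and 2.43 ± 0.20 (19). The AATAAA set was the lowest of the 3 in each reporter. Other last codons whose windows hold AATAAA at the same place averaged 1.63 ± 0.10 (35) and 2.23 ± 0.13 (53), against 1.51 ± 0.05 (195) and 2.25 ± 0.06 (241) with a base 10 other than A. AAT before AAA puts the letters at bases 1 to 6. Stop variants of that kind were at 0.73 (1 variant, EJC-independent) and 0.82 ± 0.64 (3, EJC-enhanced), with none called. Their median mean counts were low, at 15.8 and 20.9. The 1 TGG variant of that kind, EJC-enhanced, was at 1.14. These sets carry no test, and whether the letters act as a signal here was not tested. The most deeply counted AATAAA variants were these, with the stop codon in capitals.
Leucine-lysine, both reporters: ctcaaaTAAa
Leucine-lysine, second codon, EJC-independent: ctgaaaTAAa
Arginine-lysine, EJC-independent: cgcaaaTAAa
Serine-lysine, EJC-enhanced: tccaaaTAAa
Proline-lysine, EJC-enhanced: cctaaaTAAa

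The window with ctc had a response of 1.98 ± 0.25 in the EJC-independent and 2.91 ± 0.71 in the EJC-enhanced reporter. The ctg and cgc windows of the EJC-independent reporter had 1.82 ± 0.36 and 0.79 ± 0.42. The tcc and cct windows of the EJC-enhanced reporter had 1.61 ± 0.45 and 2.57 ± 0.52. AATAAA variants with many reads therefore lay on either side of the lysine mean.

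Single lysine variants were named among those that the authors' deposited tables call at an adjusted p under 0.05 with a minimum mean count of 100, 197 in the EJC-independent and 131 in the EJC-enhanced reporter. The 3 lowest and 3 highest of each are shown as examples of deeply counted windows. The call sets the low end: lysine stop variants between 100 and 200 mean counts, called or not, went down to 0.56 in the EJC-independent and 0.68 in the EJC-enhanced reporter.
EJC-independent, lowest, threonine-lysine: acaaagTAGc
EJC-independent, lowest, leucine-lysine: ctcaaaTAGt
EJC-independent, lowest, histidine-lysine: cacaaaTAGc
EJC-independent, highest, proline-lysine: ccgaagTAGt
EJC-independent, highest, isoleucine-lysine with AAG: atcaagTGAa
EJC-independent, highest, isoleucine-lysine with AAA: atcaaaTGAc
EJC-enhanced, lowest, cysteine-lysine: tgcaaaTAAc
EJC-enhanced, lowest, proline-lysine: cccaagTGAt
EJC-enhanced, lowest, alanine-lysine: gccaagTGAc
EJC-enhanced, highest, alanine-lysine: gctaaaTGAt
EJC-enhanced, highest, proline-lysine with AAG: ccgaagTAGc
EJC-enhanced, highest, proline-lysine with AAA: ccaaaaTGAc

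In the EJC-independent reporter the 3 lowest had responses of 0.93 ± 0.27, 0.95 ± 0.44 and 1.05 ± 0.43, all before TAG. The 3 highest had 3.07 ± 0.42, 2.91 ± 0.45 and 2.66 ± 0.47. The TGG control of the highest, with ccg, was at 0.20 ± 0.28, and that of the ctc window was at -0.48 ± 0.32. Of the EJC-enhanced variants the 3 lowest had 1.25 ± 0.55, 1.31 ± 0.53 and 1.32 ± 0.46, and the 3 highest 4.97 ± 0.69, 4.68 ± 0.71 and 4.53 ± 0.87, or 31.3-fold, 25.7-fold and 23.1-fold. Their TGG controls lay at -0.11 ± 0.42, -0.13 ± 0.40 and 0.21 ± 0.62. Several of these windows were also measured in the other reporter. The 3 highest EJC-enhanced windows had 1.85 ± 0.29, 1.58 ± 0.20 and 1.58 ± 0.19 in the EJC-independent reporter, near its lysine mean. Of the lowest EJC-independent windows, that with ctc had 2.92 ± 0.43 in the EJC-enhanced reporter, and that with cac had 0.10 ± 0.80 at a mean count of 32.9, low in both.

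Over the 257 lysine stop windows used in both tables, the responses of the 2 reporters correlated with Pearson's r of 0.04 and Spearman's rho of 0.05, given as a description over sequences measured in separate libraries. Windows of other amino acids gave 0.01 for both coefficients (25914 windows). Of the 257, 199 (77.4%) had the larger response in the EJC-enhanced reporter, with means of 1.69 and 2.38, and 152 were called higher in both of the authors' deposited tables. Of the 25914 windows of other amino acids, 79.3% had the larger response in the EJC-enhanced reporter, and 20524 were called higher in both. The tables were normalized apart, so only the stop minus TGG values compare levels: they differed by -0.59 (-0.77 to -0.40, adjusted p 9.8e-09) for the EJC-independent minus the EJC-enhanced reporter. A similar gap was present without lysine. Stop and TGG variants of other amino acids averaged 1.72 and -0.02 in the EJC-independent and 2.29 and 0.03 in the EJC-enhanced reporter.

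How far single lysine variants can be read depends on their counts. The deposited standard errors alone account for 85.1% of the variance between lysine stop variants in the EJC-independent reporter (SD 0.74) and 80.5% in the EJC-enhanced reporter (SD 0.95). With a minimum mean count of 500, 55 lysine variants of the EJC-independent reporter had an SD of 0.33, and the standard errors account for 33.1% of that variance. In the EJC-enhanced reporter the share did not fall with a minimum of 100 (82.2%, 144 variants, SD 0.72). These shares are approximate. For lysine TGG variants with a minimum of 100 they exceeded the whole variance, at 116.4% in the EJC-independent and 110.1% in the EJC-enhanced reporter. By mean count, from 10 to 50, 50 to 100, 100 to 200, 200 to 500 and above, EJC-independent lysine variants averaged 1.62, 1.78, 1.66, 1.77 and 1.73, and other stop variants 1.69, 1.79, 1.74, 1.72 and 1.70. No class of lysine variants stood more than 0.1 from the others there. EJC-enhanced lysine variants averaged 2.03 (268 variants), 2.41 (176), 2.50 (106), 2.37 (36) and 1.81 (2), and other stop variants 2.14, 2.31, 2.34, 2.33 and 2.30. Lysine was thus below the others in the lowest class and above them in the next 3. The mean count holds the inhibitor libraries, so a class by count is not independent of the response.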

How the data were processed

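For each reporter the authors deposited a table that compares SMG1i with DMSO, 3 libraries each, variant by variant, with no value per library. Per the file headers, a row holds the mean normalized count (baseMean, a signal averaged over both treatments), a log2 fold change and its standard error, a Wald score, its p-value and the adjusted p. The submitters' processing notes name DESeq and DESeq2; the sources used here give no versions, read processing or depth per library. The Benjamini-Hochberg adjustment recomputed over each table differed from the deposited one by at most 3.3e-16. The numerator is not stated. TGG variants centred near 0 and stop variants were negative, so the sign was reversed. With the other numerator every sign would turn.

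The members, lists and tests were chosen with earlier results of these data known. A minimum mean normalized count of 10 was applied. Least squares models (Python 3.11.15, numpy 2.4.6, scipy 1.17.1, pandas 2.3.3, biopython 1.88 for the genetic code) over all stop variants had terms for last codon, penultimate codon, stop codon and base 10. Standard errors of the models were clustered on the 6 random bases, with Wald tests and Benjamini-Hochberg adjustment within each family over the whole table. The SEs beside means of sets of variants were not clustered. They are the SD over the root of the number of variants, so variants that share their 6 random bases count as separate. Stop pairs, base 10 and penultimate amino acids were tested in models within each last amino acid. The model over all stop variants was run on simulated data with planted effects only. Within lysine, simulated data without effects were run for TGA minus TAA and for the penultimate amino acids. These runs used EJC-independent variants alone and did not cover base 10. Single variants were called by the deposited adjusted p under 0.05. Named were both codons, each stop codon and base 10, the 3 highest and 3 lowest penultimate amino acids and single variants (minimum mean count 100), runs of A, AATAAA, and asparagine, arginine and glutamine. The window measured with all 8 codon combinations was added after the values were seen. A set of 8 alternatives was run: no minimum count, minimums of 50 and 100, inverse variance weights, plain means, no clustering, subtraction of matched TGG variants, and no AATAAA or long runs of A. The same alternatives were applied, after the values were seen, to the differences between reporters and to the counts of amino acids above and below lysine.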

Additional observations from a re-analysis of the deposited data

Results flagged for a closer look

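Lysine contrasts were compared between the reporters, 16 in all, and 3 differed at an adjusted p under 0.05 (Wald test of the difference, EJC-independent minus EJC-enhanced). Lysine minus asparagine differed by 0.26 (0.15 in the EJC-independent and -0.11 in the EJC-enhanced reporter, adjusted p 0.0017). Lysine minus glutamine differed by 0.23 (0.19 and -0.04, adjusted p 0.0043). Stop minus TGG in lysine windows differed by -0.59 (1.68 and 2.27, adjusted p 9.8e-09). That difference was not particular to lysine. Variants with other last amino acids averaged 1.72 before a stop codon and -0.02 before TGG in the EJC-independent reporter. In the EJC-enhanced reporter they averaged 2.29 and 0.03. With minimum mean counts of 50 and 100 the asparagine difference was 0.15 (0.19 and 0.037, adjusted p 0.124) and 0.11 (0.17 and 0.063, adjusted p 0.356). The glutamine difference was 0.15 (0.25 and 0.093, adjusted p 0.0895) and 0.087 (0.24 and 0.15, adjusted p 0.438). The stop minus TGG difference was -0.77 and -0.79. The reporters were in separate libraries, so reporter and library cannot be told apart.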

How the results depend on the processing

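No paired analysis was possible because the tables hold no value per library, and leaving out replicates was not run for the same reason. Of 337 values under 8 alternatives, 272 kept direction and side of the threshold or, for counts and shares called, stayed near the main value. Of the rest, 41 changed sign. The cause of the changes was not tested.

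With minimum mean counts of 50 and then 100, the EJC-enhanced reporter gave 0.12 and 0.15 for lysine against other amino acids (adjusted p 0.0491 and 0.0278), 0.16 and 0.22 for AAA, 0.085 and 0.080 for AAG, and 0.072 and 0.14 for AAA minus AAG. Lysine minus asparagine was 0.037 and 0.063, minus arginine 0.17 and 0.19, and minus glutamine 0.093 and 0.15. The lysine deviation in stop minus that in TGG was 0.16 and 0.20, and base 10 A gave 0.053 and 0.033. TAA minus TAG was -0.018 at 50, and base 10 C gave -0.037 at 100. The difference of lysine deviations between reporters was -0.071 and -0.11. Between reporters, lysine minus asparagine differed by 0.15 and 0.11, and lysine minus glutamine by 0.15 and 0.087, with lysine above 11 and 13 amino acids in the EJC-enhanced reporter. The share of lysine variants called was 89.2% and 96.6% in the EJC-independent and 88.4% and 91.0% in the EJC-enhanced reporter. The shares of all stop variants at a minimum of 100 are given above and were higher. From 50 to 100, the authors' deposited tables called 70.7% of lysine and 74.0% of other stop variants in the EJC-independent reporter. In the EJC-enhanced reporter they called 86.4% and 83.6%. EJC-independent TGA minus TAA was 0.20 and 0.18, TGA minus TAG 0.20 at 100, the stop minus TGG deviation -0.0051 at 50, base 10 A 0.028 at 50 and base 10 T 0.017 at 100. With no minimum that deviation was -0.024.

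With inverse variance weights EJC-independent TGA minus TAA was 0.19 and base 10 A 0.0090. The EJC-enhanced values were 0.018 for lysine, 0.023 for AAA, 0.017 for AAG, 0.0060 for AAA minus AAG and 0.053 for the stop minus TGG deviation. With plain means the EJC-independent values were -0.0095 for AAG, -0.010 for the stop minus TGG deviation, 0.20 for TGA minus TAG and 0.016 for base 10 T, and the EJC-enhanced values 0.0034 for AAG and 0.0042 for that deviation. After TGG subtraction the EJC-independent reporter gave -0.0019 for AAG, 0.12 for lysine minus asparagine, 0.17 minus glutamine and 0.47 for TAA minus TAG (adjusted p 0.0403), and the EJC-enhanced reporter 0.024 for AAG. The EJC-independent count of amino acids below lysine was then 0, and the reporter differences were 0.22 for asparagine and 0.17 for glutamine, neither past the threshold. Without clustering 4 amino acids were above lysine in the EJC-independent reporter. Without AATAAA or runs of 5 or more A, base 10 A was 0.0041 in the EJC-independent reporter. The EJC-enhanced reporter then gave 0.0052 for the stop minus TGG deviation, -0.028 for TGA minus TAA and 0.012 for base 10 A.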

Other observations

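The G and C content of the penultimate codon was set beside the lysine responses as a description. In the EJC-enhanced reporter lysine stop variants averaged 1.65 ± 0.17 (SE, 35 variants) with no G or C in that codon, 2.31 ± 0.07 (176) with 1, 2.31 ± 0.06 (277) with 2 and 2.20 ± 0.09 (100) with 3. The EJC-independent reporter gave 1.77 ± 0.15 (21), 1.72 ± 0.07 (126), 1.71 ± 0.05 (195) and 1.62 ± 0.08 (74). The matching EJC-enhanced TGG variants lay between -0.10 and -0.01. The EJC-independent TGG variants averaged 0.36 ± 0.18 (12), -0.18 ± 0.10 (54), -0.06 ± 0.08 (64) and -0.06 ± 0.16 (22). The EJC-enhanced class without G or C also had the lowest median mean count, 32.5 against 50.9, 59.9 and 71.1, and its part in the low mean was not tested.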
